A study of Mus musculus with 4 samples.

Results

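The prolactin receptor, the growth hormone receptor and the JAK, STAT and SOCS genes that carry and restrain their signals were followed in Leydig cells, the androgen-producing cells of the testis interstitium. The set was a fixed list of 10 genes, Prlr, Ghr, Jak2, Stat3, Stat5a, Stat5b, Socs1, Socs2, Socs3 and Cish, and all 10 were found by symbol among the 27357 Ensembl gene IDs of the deposited tables. The cells came from testes of male mice with a knockout of C2orf74 (KO) and from wild-type mice (WT). All mice of both genotypes received a high-fat diet from 8 weeks of age for 12 weeks, and RNA was sequenced from 2 KO and 2 WT libraries. The question that the design poses is which transcripts differ between KO and WT Leydig cells under this diet. Strain, how the knockout was made, how the cells were isolated and whether a library holds 1 animal or a pool are not given in the labels. With nothing to tie the 2 libraries of a genotype to separate mice, the p-values describe the spread between libraries only.

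Prolactin and growth hormone are pituitary hormones whose receptors belong to the cytokine receptor family and have no kinase of their own. Hormone binding activates JAK2 bound to the receptor, which phosphorylates STAT proteins, above all STAT5A and STAT5B, and these enter the nucleus and act as transcription factors. Among the genes they switch on are the SOCS family members, including Cish, whose proteins bind the receptor or the kinase and end the signal. Rodent Leydig cells are a known site of prolactin receptors, and prolactin is known there for supporting luteinizing hormone receptors and steroid production.

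The SOCS genes read out the pathway through STAT binding sites of the form TTCNNNGAA, a palindrome that reads the same on both strands. This motif was looked for in the 300 bases around annotated starts, 250 before and 50 after, in RefSeq sequences of GRCm38.p6. Of 32851 such promoters 2726 held it (8.3%), and 150 held it more than once (0.457%). The search covered 14 promoters of 9 of the genes, Socs2 not being among them, and it found the motif in 3 promoters. These 3 are shown because they place the motif in 2 feedback genes and in the receptor with the largest difference; the matches are in capitals.
Cish (chr9:107296629-107296688, plus strand): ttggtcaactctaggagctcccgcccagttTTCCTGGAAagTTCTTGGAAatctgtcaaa
Socs3 (chr11:117969482-117969550, minus strand): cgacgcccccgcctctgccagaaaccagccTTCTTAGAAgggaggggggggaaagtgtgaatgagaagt
Prlr, second annotated start (chr15:10223766-10223834, plus strand): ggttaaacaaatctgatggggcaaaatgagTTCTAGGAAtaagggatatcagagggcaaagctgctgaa
In Cish the 2 matches began at bases 1 and 12 counted from the annotated start. The Socs3 match began 154 bases before its start and the Prlr match 110 bases before the second of its 3 starts. A match of letters is a description of the sequence and was not tested as a binding site.

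Libraries held 15694389 and 19764006 reads in KO and 13847807 and 15817094 in WT, recovered from the steps between deposited values as set out in the processing notes. Levels are in RPKM, reads scaled to gene length and to library depth, so they can be compared between genes. The mouse gene 1700093K21Rik, taken here as the counterpart of C2orf74 from general knowledge since the sources used do not pair the names, was listed at 0 in both KO libraries and in WT replicate 1, and had 4 reads (0.126 RPKM) in WT replicate 2. A count of 0 allowed up to 0.0756 to 0.108 RPKM in those libraries, so it gave no check of the genotype labels at this depth. The labelled cell type was seen in its defining markers: the 9 listed Leydig cell genes summed to 1720 and 1810 RPKM in KO and to 1630 and 1450 RPKM in WT. All 9 were detected, although Cyp17a1, the enzyme that makes androgens from progestogens, stood at only 2.12 and 1.47 RPKM in KO and 0.90 and 1.90 RPKM in WT. Across tested genes the Pearson correlation of log2 values was 0.981 between the KO libraries, 0.989 between the WT libraries and 0.979 to 0.983 across genotypes.

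Prlr was by far the most abundant of the 10 transcripts and Ghr among the scarcest. Averaged over the 4 libraries Prlr lay at the 96.2th percentile of the 12391 genes tested, whereas Ghr lay at the 21.5th. Stat3 (30.4 to 32.1 RPKM over the 4 libraries) and Stat5b (27.2 to 30.8 RPKM) came next and overlapped each other. Socs3 (15.2 to 20.97 RPKM) and Stat5a (12.0 to 23.8 RPKM) also overlapped, followed by Jak2 (9.78 to 11.1 RPKM). Socs2 (2.80 to 5.50 RPKM), Socs1 (2.30 to 3.79 RPKM), Ghr (2.24 to 2.70 RPKM) and Cish (1.81 to 2.81 RPKM) formed a low group whose ranges overlapped from each to the next. The plot of levels shows the genes in this order of their means.

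**Figure D1:**
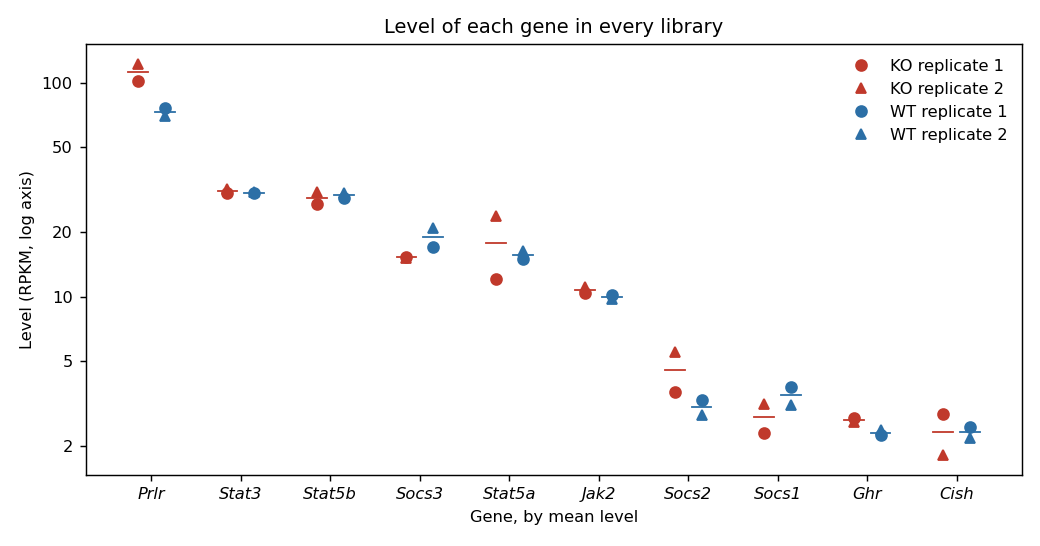
Level of the 10 genes in RPKM on a log axis, ordered by mean level. Each point is a library (KO red, WT blue; circles replicate 1, triangles replicate 2) and short lines are group means; Prlr sits at 103 and 124 RPKM in KO against 76.9 and 70.3 RPKM in WT, and the Stat5a points of KO lie on both sides of WT.

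None of the 10 genes passed the test between KO and WT, and Prlr came nearest. All 10 met the filter of at least 1 RPKM in 2 libraries. Values were tested with limma as log2(RPKM + 1), a scale on which the differences of scarce transcripts appear too small. On it 0 of 10 had an adjusted p (FDR, Benjamini-Hochberg over all genes tested) under 0.05, as did 0 of 12391 genes (0%). Voom on the recovered reads, which could be run for 9 of the 10 genes, also called 0 of them and 0 of 10852 genes. In limma, 1 of the 10 had an unadjusted p under 0.05 and was higher in KO, and 0 were lower, beside 11.7% of all genes in either direction (4.33% higher and 7.42% lower). KO and WT libraries did not overlap for 5 of the 10 genes, beside 44.7% of all genes: 4 lay above WT (19.7% of all genes) and 1 below (25%). The median log2 difference was 0.06 over the 10 genes and -0.02 over all genes. Taken over either direction, these shares are close to the background of the comparison and say nothing particular about the set. The split into 4 above and 1 below leaned above WT more than that of all genes. It rests on 5 genes and was not tested. A permutation of 2 against 2 libraries cannot give a 2-sided exact p below 0.333, so no single gene was tested that way.

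**Figure D2:**
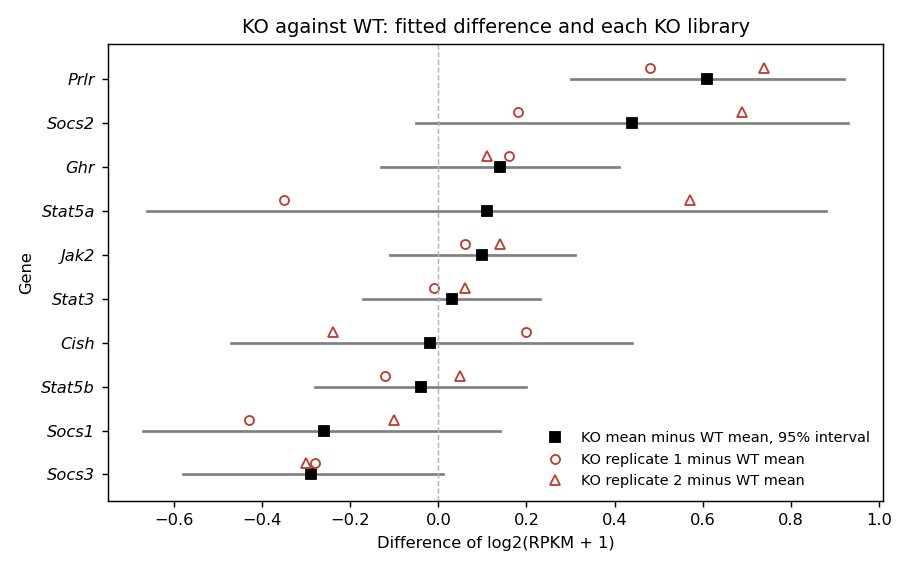
Difference of log2(RPKM + 1) between KO and WT for each gene, ordered by size. Black squares are the fitted differences with their 95% limma intervals (grey), and red circles and triangles are KO replicate 1 and KO replicate 2, each minus the WT mean. The interval of Prlr runs from 0.30 to 0.92, and for Stat3, Stat5a, Stat5b and Cish the 2 KO libraries fall on opposite sides of 0.

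The receptors are described first. Prlr (ENSMUSG00000005268, chromosome 15, 10177238 to 10349180 on the plus strand in GRCm38) had 103 and 124 RPKM in KO, against 76.9 and 70.3 RPKM in WT. Both KO libraries were above both WT libraries, with 24796 and 37490 reads in KO and 16343 and 17060 reads in WT behind the values. The means were 113 ± 14.6 RPKM in KO and 73.6 ± 4.68 RPKM in WT (SD, n = 2 each). The log2 difference was 0.61 ± 0.12 (SE; 95% interval 0.30 to 0.92), a fold of 1.53, with a limma adjusted p of 0.229. Of all tested genes 3.27% differed by as much or more. Against the WT mean, KO replicate 1 was higher by 0.48 and KO replicate 2 by 0.74. The adjusted p was 0.0294 without KO replicate 1, in a fit that takes the spread from the WT pair and calls 2.53% of all genes, and it ran from 0.0294 to 0.819 over the alternatives. Gene-level values do not separate the long from the short receptor isoforms, which share their hormone-binding part and differ in the tail that signals.

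The Leydig cell markers were higher in KO as a sum, but not one by one. Hsd3b1 and Hsd3b6 together had 1084 and 1268 RPKM in KO and 807 and 720.3 RPKM in WT, while the other 7 markers summed to 639 and 546 RPKM in KO and to 828 and 729 RPKM in WT. Among those 7, Insl3, the Leydig cell peptide hormone, had 73.0 and 81.5 RPKM in KO and 164 and 133 RPKM in WT, while Cyp11a1, which starts steroid synthesis from cholesterol, stood at 360 and 300 RPKM in KO and 415 and 402 RPKM in WT. Star, which brings cholesterol into mitochondria, overlapped, with 148 and 108 RPKM in KO and 201 and 142 RPKM in WT, and Hsd17b3, the enzyme that makes testosterone, lay above WT at 8.11 and 7.71 RPKM in KO and 4.83 and 5.14 RPKM in WT. None of these markers passed the test over all genes. Relative to 1000 RPKM of the 9 markers, Prlr stood at 59.8 and 68.2 in KO and at 47.1 and 48.5 in WT. Relative to the 7 markers without the Hsd3b genes, a choice made after the data were seen, Prlr stood at 161 and 227 in KO and at 92.9 and 96.5 in WT. KO thus lay above WT on both scales. On the 7-marker scale this order was fixed in advance, since Prlr was higher and the sums lower in both KO libraries. On the scale of the 9 markers Socs2 also stayed above WT and Socs3 below it. On that scale Ghr overlapped (1.57 and 1.42 in KO, 1.37 and 1.63 in WT), Jak2 lay below WT (6.03 and 6.12 in KO, 6.19 and 6.75 in WT), and Stat3, Stat5b and Socs1 lay below WT as well. Only Prlr was set against the 7 markers, whose sums were lower in KO and not higher. The order of KO and WT for the other genes therefore holds for the 9-marker scale only. In a preparation of many cells, more cells of a type and more RNA per cell cannot be told apart. The 3 tested genes of at least 5 RPKM whose log2 values lay nearest to those of Prlr over the 4 libraries, each centred on its own mean, were Hsd3b6, Ptges and Snord19, of 7045 searched. Hsd3b6, a 3-beta-hydroxysteroid dehydrogenase of the steroid pathway and one of the markers summed above, had 673 and 820 RPKM in KO and 484 and 460 RPKM in WT (Euclidean distance 0.0597). Ptges, a prostaglandin E synthase, had 107 and 143 RPKM in KO and 83.7 and 76.2 RPKM in WT (distance 0.105). Snord19, a small nucleolar RNA, had 9.22 and 11.3 RPKM in KO and 6.65 and 6.66 RPKM in WT (distance 0.109). With 4 libraries such likeness is a description only.

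Ghr (ENSMUSG00000055737, chromosome 15, 3317760 to 3583492 on the minus strand) was low in both genotypes. It had 2.70 and 2.57 RPKM in KO and 2.24 and 2.37 RPKM in WT, from 384 and 460 reads in KO and 281 and 339 reads in WT. The groups did not overlap, but the gap was narrow: the exact 95% Poisson interval of KO replicate 2 (2.34 to 2.82 RPKM) included the value of WT replicate 2. Such intervals cover counting error only. The log2 difference was 0.14 ± 0.11 (95% interval -0.13 to 0.41; limma adjusted p 0.662). Prlr exceeded Ghr by factors of 38.1 and 48.1 in the KO libraries and 34.3 and 29.7 in the WT libraries. The genes nearest to Ghr in pattern were Cwc25, a splicing factor (distance 0.0139), Mtor, the growth-regulating kinase (0.0201), and Pxk, which carries a lipid-binding PX domain (0.0212).

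Of the hormones themselves, Gh was listed at 0 in both KO libraries and had 4 and 2 reads in WT (0.335 and 0.147 RPKM). Prl was not found by symbol among the gene IDs used here, so it has no values. A count of 0 allowed up to 0.222 and 0.176 RPKM of Gh in KO, which is of the size of the WT values, so no difference was detectable at this depth.

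Jak2, the kinase of both receptors (ENSMUSG00000024789, chromosome 19, 29251828 to 29313080), differed little. It had 10.4 and 11.1 RPKM in KO and 10.1 and 9.78 RPKM in WT, so KO lay just above WT. Relative to the 9 Leydig cell markers KO lay below WT, as given above, and the 7-marker scale was not applied to Jak2. The log2 difference was 0.10 ± 0.08 (95% interval -0.11 to 0.31; limma adjusted p 0.681). The ratio of Prlr to Jak2 was 9.92 and 11.1 in KO and 7.6 and 7.19 in WT.

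Among the transcription factors Stat3 and Stat5b were level, while Stat5a split the KO libraries. Stat3, used mainly by receptors of the interleukin-6 family, had 30.5 and 32.1 RPKM in KO and 30.4 and 30.9 RPKM in WT. Its groups overlapped and the 95% interval of its log2 difference, -0.17 to 0.23, was the narrowest of the 10. Stat5b had 27.2 and 30.8 RPKM in KO and 28.9 and 30.6 RPKM in WT (log2 difference -0.04 ± 0.09; 95% interval -0.28 to 0.20). Neither passed, with limma adjusted p of 0.919 for Stat3 and 0.899 for Stat5b.

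Stat5a (ENSMUSG00000004043, chromosome 11, 100859351 to 100885169 on the plus strand), which is the major prolactin-activated STAT of the mammary gland, had 12.0 and 23.8 RPKM in KO against 15.03 and 16.3 RPKM in WT. KO replicate 1 was thus below both WT libraries and KO replicate 2 above both. These values rest on 1348 and 3353 reads in KO and on 1485 and 1844 reads in WT, and the Poisson intervals of the KO libraries (11.4 to 12.7 and 23.0 to 24.6 RPKM) were far apart. The gap between the KO libraries was 0.93 on the log2 scale, and 1.86% of tested genes had a gap at least as wide; between the WT libraries it was 0.11. The log2 difference between genotypes was therefore 0.11 ± 0.30 (95% interval -0.66 to 0.88; limma adjusted p 0.915). It was 0.57 without KO replicate 1 (adjusted p 0.0488) and -0.35 without KO replicate 2 (adjusted p 0.168), so its direction depends on which KO library is used. These fits called 2.53% of all genes without KO replicate 1 and 1.15% without KO replicate 2, and the adjusted p of Stat5a ran from 0.0488 to 0.994 over the alternatives.

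Stat5b exceeded Stat5a by 2.26 and 1.29 in KO and by 1.93 and 1.87 in WT. The genes lie side by side on chromosome 11 together with Stat3, and they are close copies. Of the distinct 50-base windows in their GENCODE transcripts, 8.52% of those of Stat5a and 10.98% of those of Stat5b occurred in another gene's transcripts. Reads from such stretches could be credited to either gene, and how the authors counted them is not given in the sources used here. Stat5b was 0.17 higher in KO replicate 2 than in KO replicate 1 on the log2 scale, on the same side as Stat5a. A gap between the KO libraries at least that wide was seen in 43.4% of tested genes.

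The SOCS genes that restrain the pathway went in different directions. Socs2, the SOCS protein best known for limiting growth hormone action (ENSMUSG00000020027, chromosome 10, 95385362 to 95417180 on the minus strand), had 3.56 and 5.50 RPKM in KO and 3.27 and 2.80 RPKM in WT. KO was above WT in both libraries, but KO replicate 1 only narrowly: its Poisson interval (3.27 to 3.88 RPKM) reached the level of WT replicate 1. The log2 difference was 0.44 ± 0.19 (95% interval -0.05 to 0.93; limma adjusted p 0.463). Without KO replicate 2 the difference was 0.18 (adjusted p 0.605) and without KO replicate 1 it was 0.69 (adjusted p 0.0658), in a range of 0.0658 to 0.992 over the alternatives. Of its 50-base windows 4.58% also occurred in transcripts of other genes, mostly of the pseudogene Gm9847, so the credit of reads there is uncertain.

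Cish, which competes with STAT5 for its docking sites on the receptors (ENSMUSG00000032578, chromosome 9, 107296026 to 107302784 on the plus strand), is the gene with the paired motif shown above. It had 2.81 and 1.81 RPKM in KO and 2.44 and 2.18 RPKM in WT. KO replicate 1 was above both WT libraries and KO replicate 2 below both, the reverse of Stat5a. The means were equal within their spread, 2.31 ± 0.71 RPKM in KO and 2.31 ± 0.187 RPKM in WT (SD, n = 2 each), with a 95% interval of the log2 difference from -0.47 to 0.44. The ratio of Socs2 to Cish was 1.27 and 3.05 in KO and 1.34 and 1.29 in WT, so KO replicate 2 stood apart from the other libraries. Antisense transcripts overlap Cish exons, and without a stated strand in the counting their reads cannot be told apart from those of Cish.

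Socs3, the inhibitor of receptors that signal through gp130 and of the leptin receptor (ENSMUSG00000053113, chromosome 11, 117966079 to 117970047 on the minus strand), was the only one of the 10 genes with both KO libraries below both WT libraries. It had 15.4 and 15.2 RPKM in KO and 17.1 and 20.97 RPKM in WT. The log2 difference was -0.29 ± 0.11 (95% interval -0.58 to 0.01; limma adjusted p 0.428). The 13 immediate early genes, listed because they respond to tissue dissociation, had lower sums alongside, 299 and 278 RPKM in KO and 383 and 364 RPKM in WT. Of the 12 tested, 12 had a log2 difference below 0, though that of Jun was only -0.04. Egr1 and Hspa1b overlapped between the genotypes, as did Fosb, which was not tested. At an unadjusted p under 0.05, 5 of the 12 were lower, beside 7.42% of all genes. The part of the immediate early genes in the Socs3 values was not tested.

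Socs1, which inhibits JAK kinases directly and is known above all from interferon signalling (ENSMUSG00000038037, chromosome 16, 10782240 to 10785536 on the minus strand), had 2.30 and 3.15 RPKM in KO and 3.79 and 3.11 RPKM in WT. The groups overlapped, since KO replicate 2 lay just above WT replicate 2. The log2 difference was -0.26 ± 0.16 (95% interval -0.67 to 0.14; limma adjusted p 0.578). The macrophage marker sum was lowest in the same library: the 9 genes summed to 213 and 327 RPKM in KO and to 411 and 308 RPKM in WT. A log2 difference below 0 was seen in 8 of 8 tested, but 0 were lower at an unadjusted p under 0.05. Only Cd68 and Csf1r had both KO libraries below both WT libraries. The others overlapped, as did Cd163, which was not tested and had a higher mean in KO. The part of macrophages in the Socs1 values was not tested. Socs3 exceeded Socs1 by 6.69 and 4.84 in KO and by 4.51 and 6.74 in WT.

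Beyond the 10 genes, 74 others of the pathway were listed, of which 71 were in the tables and 59 passed the filter. None of the 59 passed the test over all genes. At an unadjusted p under 0.05, 3 were higher and 10 lower in KO, 22.0% of those tested, beside 11.7% of all genes. Of the 10 lower genes 5 were on the list of 9 tested STAT3 targets, whose median log2 difference was -0.29, beside -0.02 over all genes. Without KO replicate 1, Lifr passed as higher (adjusted p 0.0294) and Cebpd (0.0294), Gadd45g (0.0323) and Timp1 (0.0407) as lower, in the fit that called 2.53% of all genes.

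Of the other JAKs and STATs, Jak3 had the largest difference and the others differed less. Jak3, the kinase of lymphoid cytokine receptors, is outside the naming rule and was chosen after its values were seen. It had 10.45 and 6.61 RPKM in KO and 5.86 and 7.35 RPKM in WT (log2 difference 0.30), with KO replicate 1 high and KO replicate 2 within WT. Jak1, the partner kinase of many cytokine receptors and the most abundant JAK, had 67.2 and 64.4 RPKM in KO and 59.8 and 60.0 RPKM in WT (limma adjusted p 0.570). Stat2 of the interferon pathway had 11.9 and 11.4 RPKM in KO and 10.05 and 10.01 RPKM in WT. Stat6, the interleukin-4 STAT, had 30.8 and 31.7 RPKM in KO and 33.7 and 34.1 RPKM in WT. Of 6 tested, 1 was higher at an unadjusted p under 0.05 and 0 lower.

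The remaining negative regulators gave no call either, with 0 higher and 1 lower of 14 tested at that p and a median of -0.03. The lower one was Sh2b3, an adaptor that restrains JAK2, with 4.57 and 4.59 RPKM in KO and 5.80 and 5.52 RPKM in WT. Socs6 had 5.05 and 5.51 RPKM in KO and 4.62 and 4.90 RPKM in WT. Socs5 had 11.7 and 9.09 RPKM in KO and 12.2 and 11.5 RPKM in WT.

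Among 9 tested adaptors that couple the receptors to other routes, 0 were higher and 0 lower at that p. Shc1, which leads to the Ras pathway, had 17.2 and 17.9 RPKM in KO and 20.1 and 20.4 RPKM in WT. Sos1, the Ras activator, had 6.79 and 7.46 RPKM in KO and 6.14 and 5.81 RPKM in WT. Irs1, the insulin receptor substrate, had 6.66 and 10.1 RPKM in KO and 5.99 and 7.004 RPKM in WT, so that KO replicate 2 was again the highest library.

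Among the other cytokine receptors, the 2 with higher values in KO at an unadjusted p under 0.05 were the chains that pair in the receptor of leukaemia inhibitory factor. Lifr, the chain specific to that factor, had 83.7 and 112 RPKM in KO and 60.8 and 68.2 RPKM in WT, a level and a log2 difference (0.58 ± 0.16; limma adjusted p 0.322) near those of Prlr. Its partner Il6st, which encodes gp130, had 50.6 and 46.8 RPKM in KO and 38.2 and 41.4 RPKM in WT. Csf2ra, a receptor chain for granulocyte-macrophage colony-stimulating factor that myeloid cells carry, had 13.0 and 16.1 RPKM in KO and 20.9 and 18.4 RPKM in WT. Its log2 difference was -0.41, beside a median of -0.37 over the 8 tested macrophage markers, whose sums given above overlap between the genotypes. The part of macrophages in the Csf2ra values was not tested. Over the 15 tested receptors 2 were higher and 3 lower at an unadjusted p under 0.05, with a median of 0.01.

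The listed STAT5 targets, which leave out Socs2 and Cish, gave no call. Of 6 tested genes 6 had a log2 difference below 0, with a median of -0.21, but 3 overlapped between the genotypes and 1 had an unadjusted p under 0.05. Socs2 and Cish, also known STAT5 targets, had log2 differences of 0.44 and -0.02. Igf1, the textbook growth hormone target, had 10.85 and 10.92 RPKM in KO and 12.9 and 9.57 RPKM in WT, so the groups overlapped (log2 difference -0.03 ± 0.15). Igfals, the liver partner of circulating IGF1, was at 0 in all libraries. Gadd45g, a growth arrest gene, had 35.4 and 27.7 RPKM in KO and 43.9 and 42.7 RPKM in WT (log2 difference -0.46 ± 0.13; limma adjusted p 0.333). Bcl2l1, which protects from apoptosis, had 27.8 and 30.7 RPKM in KO and 35.0 and 31.3 RPKM in WT. Ccnd1, cyclin D1, had 4.41 and 4.91 RPKM in KO and 7.10 and 4.90 RPKM in WT, where the single high library was WT replicate 1.

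Most STAT3 targets lay lower in KO, as Socs3 did. Both KO libraries were below both WT libraries for 7 of 9 tested, beside 25% of all genes. The other 2, Lrg1 and Icam1, overlapped between the genotypes, with log2 differences above 0. Cebpd, an acute-phase transcription factor, had 18.3 and 15.2 RPKM in KO and 26.8 and 24.96 RPKM in WT (log2 difference -0.60 ± 0.11; limma adjusted p 0.204). Junb, an AP-1 subunit, had 36.9 and 31.4 RPKM in KO and 43.4 and 47.4 RPKM in WT, and Timp1, a matrix protease inhibitor, had 343 and 277 RPKM in KO and 421 and 425 RPKM in WT. Junb and Fos are also on the immediate early list, whose lower sums in KO are given above. Lrg1, the most abundant of the list and chosen after its values were seen, had 580 and 291 RPKM in KO and 348 and 440 RPKM in WT, so the KO libraries lay on both sides of WT.

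**Figure D3:**
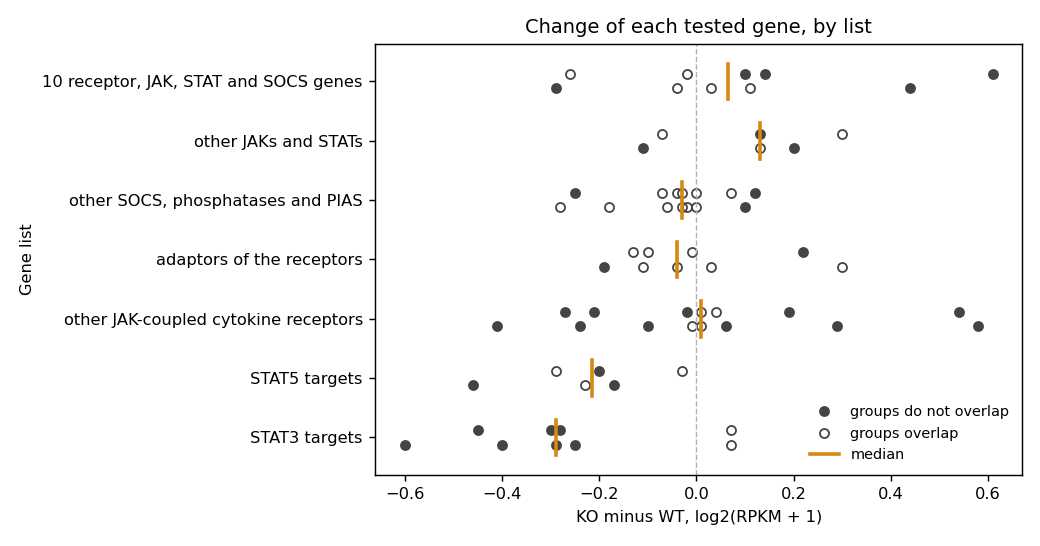
Log2 difference between KO and WT of every tested gene of the set and of the pathway lists (rows). Filled points are genes whose KO and WT libraries do not overlap, open points those that overlap, and the orange line is the list's median, which is -0.29 for STAT3 targets and -0.21 for STAT5 targets.

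Markers of other cells that the preparation could hold had lower sums in KO for several types. Peritubular myoid and smooth muscle genes, most of whose sum was Acta2, summed to 189 and 174 RPKM in KO and to 221 and 252 RPKM in WT. Endothelial genes, most of whose sum was Cdh5, summed to 13.3 and 10.4 RPKM in KO and to 20.4 and 22.6 RPKM in WT. At an unadjusted p under 0.05, 5 of 5 tested myoid genes and 2 of 3 tested endothelial genes were lower. The 2 endothelial genes, Cldn5 and Esam, reached 1 RPKM only in the WT libraries, so the filter favoured their direction. Cldn5 had 0.23 and 0.93 RPKM in KO and 2.40 and 3.40 RPKM in WT, and Esam 0.84 and 0.90 RPKM in KO and 2.12 and 2.32 RPKM in WT. Fibroblast genes summed to 284 and 226 RPKM in KO and to 281 and 314 RPKM in WT. Germ cell genes, most of whose sum was Zbtb16, had higher sums in KO, with 15.5 and 13.0 RPKM in KO and 10.4 and 11 RPKM in WT. Of the 3 tested, 3 had higher values in KO, and 2, Prm1 and Dazl, an unadjusted p under 0.05. Those 2 reached the filter of 1 RPKM only in the KO libraries, so the filter itself favoured this direction. Prm1 had 1.22 and 1.08 RPKM in KO and 0.31 and 0.40 RPKM in WT, and Dazl 1.06 and 1.02 RPKM in KO and 0.32 and 0.21 RPKM in WT. The germ cell genes Prm2, Tnp2, Sycp3, Ddx4, Acrv1 and Ldhc were below the filter and overlapped between the genotypes. Among them Tnp2, Ddx4 and Acrv1 had lower means in KO, and Prm2, Sycp3 and Ldhc higher ones. Sertoli cell genes (12.5 to 18.6 RPKM over the 4 libraries, most of it Aard) and lymphocyte genes (1.04 to 3.41 RPKM) were low throughout. No listed marker was at 0 in all libraries, and the part of these cells in the values of the 10 genes was not tested.

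**Figure D4:**
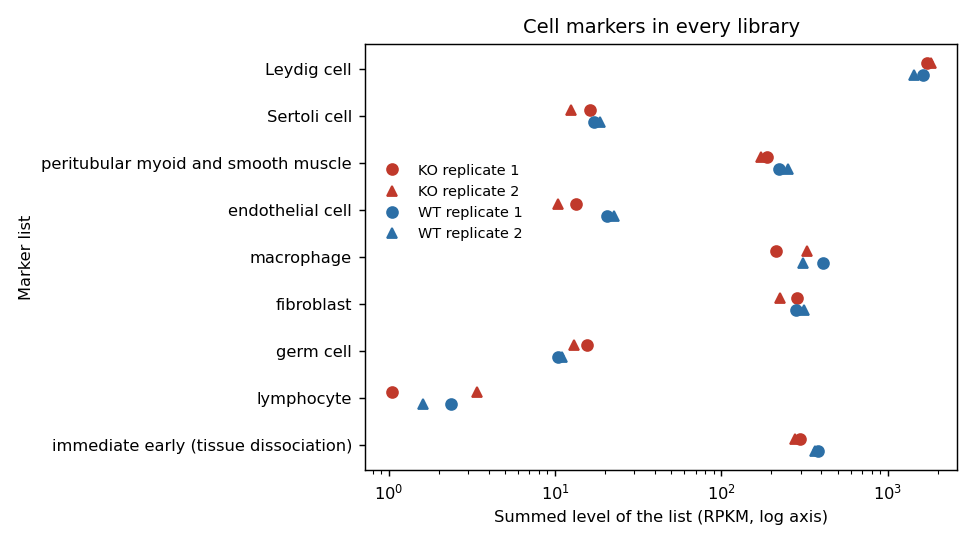
Summed RPKM of each marker list (rows) in every library on a log axis, with KO in red above WT in blue and circles and triangles for replicates 1 and 2. Leydig cell genes are highest, at 1720 and 1810 RPKM in KO against 1630 and 1450 RPKM in WT, and the myoid, endothelial and immediate early sums of KO lie below those of WT.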

How the data were processed

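RNA was extracted with Trizol and sequenced on standard Illumina libraries, per the labels' protocols; mm9 is the only build listed, per the submitters' processing notes. Software for alignment and counting, and the gene models used, were not given in the sources used here. The deposited tables hold 1 value per gene and library, taken to be RPKM scaled by the authors: multiplied by summed exonic length in GENCODE M21, 90.4% to 90.7% of values above 0 were whole multiples of 1 step per library within 0.01. These steps gave the reads and depths; reads of Socs1 did not come out whole in any library and are rounded. Symbols matched 27306 IDs and 51 had none. Coordinates are from GENCODE M21 on GRCm38, since no mm9 annotation was used.

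The model was limma 3.58.1 (R 4.3.3) on log2(RPKM + 1) with genotype as its only term and a trended empirical Bayes step. It covered the 12391 genes with 2 or more libraries at no less than 1 RPKM (2 residual and 3.08 prior degrees of freedom). The fit was tested on simulated data. Planted changes there were larger than the differences of the 10 genes, so it does not bear on differences of their size. Alternatives were quantile and median-of-ratios scaling, no filter, a filter at 5 RPKM, pseudocounts of 0.1 and 0.5, no trend, voom on recovered reads (10852 genes), each library left out, and a replicate block. Tables and plots used Python 3.11.15, pandas 2.3.3, NumPy 2.4.6 and Matplotlib 3.10.9.

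The 10 genes, the pathway and marker lists and the tests were chosen with earlier results of these data known. Named were the 10 genes, of each pathway list the 3 tested genes with the smallest p, Igf1, Jak1, both ligands, and the 3 genes nearest to Prlr and to Ghr. Replicates are numbered in deposition order. A planned comparison of protein sequences was not run; shared 50-base windows were counted instead, a choice made after the data were seen.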

Additional observations from a re-analysis of the deposited data

How the results depend on the processing

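Over 29 named genes and 366 alternative values, 352 kept their direction and their side of an FDR of 0.05. Prlr stayed higher in KO in all 13 alternatives (log2 difference 0.48 to 0.74, adjusted p 0.0294 to 0.819). With each library left out, the number of genes past the FDR ran from 0 to 111 higher and from 0 to 195 lower in KO, with 57 and 82 without KO replicate 2. Among the 10 genes it ran from 0 to 2 higher, the 2 being Prlr and Stat5a without KO replicate 1. Pathway genes ran from 0 to 1 higher (Lifr) and from 0 to 3 lower (Cebpd, Gadd45g, Timp1), and markers from 0 to 1 higher and 0 to 7 lower. Fits without a KO library take their spread from the WT pair, and the lone KO library is assumed to vary likewise. Directions turned for Stat3 (-0.01 to 0.06), Stat5a (-0.35 to 0.57), Stat5b (-0.12 to 0.05), Cish (-0.24 to 0.20) and Igf1 (-0.23 to 0.17) with a library left out, and for Stat5b under quantile scaling (0.0027). Beyond the library left out, the cause was not tested. The replicate block, from the order of the titles, called 0 genes. Same-numbered libraries showed a correlation of -0.096 between their deviations. With 2 libraries of each genotype this cannot settle whether the numbers pair them. Voom on recovered reads also called 0 genes, with 499 higher and 801 lower at an unadjusted p under 0.05. Socs1 had no value there, and Socs1, Socs2, Ghr and Cish are limited by 105 to 1036 reads.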
